A study of Mus musculus with 24 samples.

Results

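The homeostatic microglia markers described here are 10 genes chosen by name: Tmem119, P2ry12, P2ry13, Cx3cr1, Fcrls, Olfml3, Csf1r, Siglech, Gpr34 and Sall1. All 10 were found among the 55291 genes of the deposited tables, and all 10 passed the filter on low counts in both the expression test and the test of immunoprecipitation (IP) against input. Hippocampal poly(A) RNA of 12 mice was profiled with an antibody against N6-methyladenosine (m6A), an internal modification of messenger RNA, with 1 input library and 1 IP library from each animal. The 4 wild-type mice had no treatment, and 4 mice of the 5xFAD genotype received vehicle and 4 received MS1262. The protocol calls the wild-type mice age-matched.

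The 5xFAD genotype is a transgenic model of amyloid deposition, in which mutant human proteins of inherited Alzheimer's disease are expressed from the Thy1 promoter, which is active mainly in neurons. MS1262 inhibits the histone methyltransferase G9a and, according to the title of the series, enters the brain. Its dose and the length of dosing are not in the labels. Since the wild-type mice received nothing, genotype and dosing cannot be told apart in any comparison with them, and both 5xFAD groups were compared with the same 4 wild-type mice.

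Microglia are the resident macrophages of the brain, and in the healthy tissue they express a characteristic set of surface receptors and secreted proteins. Several of these receptors sense signals from neurons and damaged cells: P2ry12 and P2ry13 bind nucleotides, and Cx3cr1 binds fractalkine. In microglia that gather at amyloid plaques some of these genes are known to be lowered, while a set of lipid-handling and lysosomal genes is raised. In RNA of whole tissue, the number of cells of a type and the amount of RNA per cell cannot be told apart.

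Input libraries held 20.7 to 43.2 M estimated counts and IP libraries 3.98 to 48.6 M, the lowest being the IP library of vehicle animal 4. Vehicle animal 3 stood apart in its input library: transthyretin (Ttr), a choroid plexus transcript, was at 7032 CPM (counts scaled to equal library size) against 31.7 to 730 in the other 11 inputs, and Xist was at 1.30 CPM against 21.4 to 48.0. Counts of 4 Y-linked genes reached at most 0.188 CPM in any library. Calls of the 10 markers that changed without vehicle animal 3 are also given without it.

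Levels can be compared between genes in TPM, which are scaled by transcript length as well as by library. In wild-type input P2ry12 was the most abundant marker at 114 ± 9.24 TPM (SD, n = 4), followed by Gpr34, a receptor for lysophosphatidylserine, at 33.4 ± 3.31 TPM. Both gaps, from P2ry12 to Gpr34 and from Gpr34 to the next gene, held in every wild-type animal. Siglech, a sialic acid-binding lectin, followed at 11 ± 1.49 TPM, P2ry13 at 7.84 ± 2.09 TPM, the Fc receptor-like gene Fcrls at 6.43 ± 3.70 TPM and Cx3cr1 at 5.02 ± 0.496 TPM, and neighbours in this stretch overlapped. Csf1r, the receptor for the survival factors Csf1 and Il34, was at 3.09 ± 0.848 TPM and did not separate from the secreted glycoprotein gene Olfml3 at 2.96 ± 0.385 TPM. The transcription factor gene Sall1 at 1.25 ± 0.231 TPM and the membrane protein gene Tmem119 at 0.495 ± 0.257 TPM were lowest, each separated from the gene above it in all 4 animals.

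Fcrls moved up in the order, and in the 5xFAD mice given vehicle it had the next highest mean after Gpr34 at 30.9 ± 13.7 TPM, and in those given MS1262 too, at 29.3 ± 5.51 TPM. P2ry12 remained the most abundant marker in both, at 125 ± 28.9 and 124 ± 9.71 TPM, and no other marker reached its lowest animal. Tmem119 rose to the level of Sall1, with 1.91 ± 0.324 against 1.82 ± 0.504 TPM in the vehicle group, where the values overlapped.

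Comparing expression in 5xFAD mice given vehicle with wild-type mice asks which markers differ with the disease model. Tmem119, Fcrls, Olfml3 and Cx3cr1 were higher in the vehicle group, by 2.01- to 5.19-fold, while the purine receptor genes P2ry12 and P2ry13 showed the smallest differences. None was lower. The median log2 fold change of the 10 markers was 0.83, beside 0.01 over all 17693 genes tested. With edgeR's quasi-likelihood test at a Benjamini-Hochberg adjusted p below 0.05, 4 of 10 markers were called higher and none lower, where 1.06% of all genes were called higher.

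Olfml3, whose product is secreted into the matrix, had the smallest adjusted p of the 10 markers. Its input CPM was 12.7, 11.6, 12.1 and 13.5 in wild-type animals 1 to 4 and 37.3, 39.1, 23.4 and 34.4 in the vehicle animals. Every vehicle animal lay above every wild-type animal, and vehicle animal 3 was the lowest of its group. The difference was 2.71-fold (log2 1.44, SE 0.16, edgeR adjusted p = 0.000306).

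Fcrls is a mouse gene of the Fc receptor-like family with expression centred on microglia. Its input CPM was 5.55, 9.52, 24.1 and 16.4 in the wild-type animals and 68.3, 100, 29.5 and 86.6 in the vehicle animals. The groups did not overlap, although wild-type animal 3 and vehicle animal 3 came within a small distance of each other. The difference was 5.19-fold with a 95% confidence interval of 2.85 to 9.45 (edgeR adjusted p = 0.00826).

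Tmem119 is a membrane protein used to tell microglia from other brain macrophages, and its transcript was scarce here. Its input CPM was 1.74, 0.592, 0.619 and 1.27 in the wild-type animals, resting on 13 to 60 counts, and 3.88, 4.82, 3.71 and 5.62 in the vehicle animals, on 87 to 207 counts. All vehicle animals lay above all wild-type animals. The difference was 4.25-fold (log2 2.09, SE 0.33, edgeR adjusted p = 0.00555).

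Cx3cr1 encodes the microglial receptor for fractalkine, the neuronal chemokine encoded by Cx3cl1. Its input CPM was 17.8, 19.3, 15.9 and 15.6 in the wild-type animals and 33.7, 41.1, 21.7 and 40.3 in the vehicle animals. The groups were again separate, with vehicle animal 3 nearest to the wild-type mice. The difference was 2.01-fold (log2 1.01, SE 0.17, edgeR adjusted p = 0.00777). With limma on log2(TPM + 1) or on log2(TPM + 0.1) Cx3cr1 was not called (highest adjusted p over its alternatives 0.0607).

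P2ry12, the ADP receptor that directs microglial processes to sites of injury, was almost level between the groups. Its input CPM was 202, 210, 183 and 183 in the wild-type animals and 218, 291, 188 and 235 in the vehicle animals, and the groups overlapped. The difference was 1.21-fold with an interval of 1.01 to 1.44 (edgeR adjusted p = 0.354). P2ry13, its neighbour on chromosome 3 and also an ADP receptor, had 21.7, 25.5, 15.7 and 14.0 CPM in wild-type and 24.4, 28.9, 16.4 and 28.6 CPM in vehicle animals. The ratio for P2ry13 was 1.29 with an interval of 0.935 to 1.78 (edgeR adjusted p = 0.520).

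The remaining 4 markers lay between these extremes. Csf1r was at 13.5 ± 3.24 CPM in wild-type and 23.6 ± 6.59 CPM in vehicle mice (log2 0.82, edgeR adjusted p = 0.0722). Gpr34, which lies within the span of Cask, was at 60.6 ± 4.81 and 107 ± 37.8 CPM (log2 0.83, edgeR adjusted p = 0.0792), while Cask itself was lower in the vehicle group (196 ± 22 and 144 ± 13.7 CPM, adjusted p = 0.0388). Siglech was at 15.6 ± 2.06 and 25.5 ± 7.97 CPM (log2 0.72, edgeR adjusted p = 0.100) and Sall1, which encodes a transcription factor that maintains microglial identity, at 6.73 ± 1.38 and 10.7 ± 2.31 CPM (log2 0.68, edgeR adjusted p = 0.0941). None of these 4 passed the threshold, and among them Sall1 alone had every vehicle animal above every wild-type animal. In all, 5 of 10 markers separated the groups in this way, against 3.87% of all genes.

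**Figure D1:**
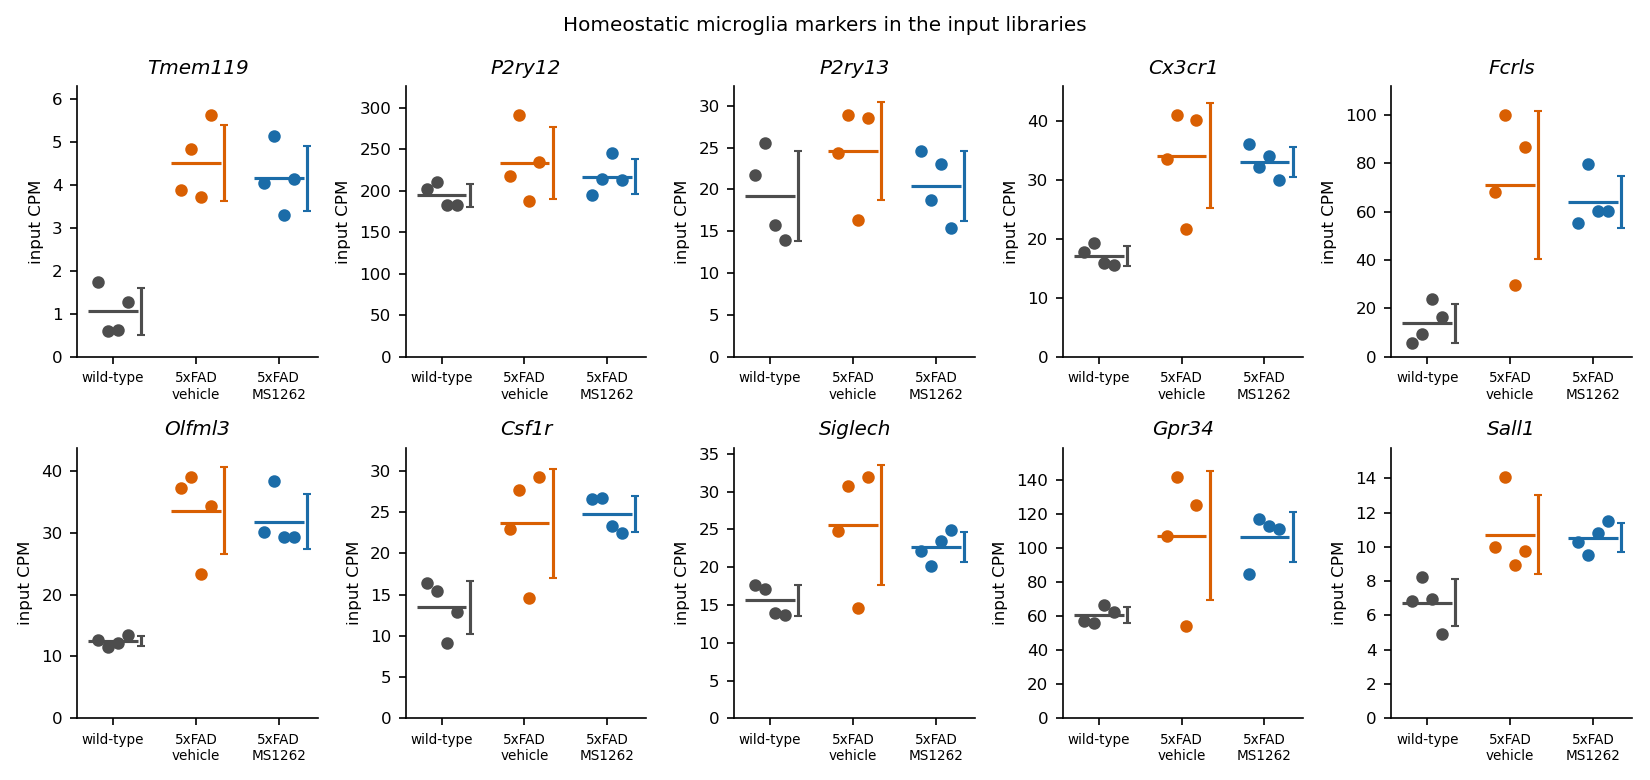
Input level of each marker in CPM (linear axes from 0) in 4 wild-type, 4 vehicle-treated and 4 MS1262-treated animals, with animals in number order from left to right, the group mean as a horizontal line and the SD as a bar. Olfml3, Cx3cr1, Fcrls and Tmem119 separate wild-type from both 5xFAD groups, whereas P2ry12 and P2ry13 overlap.

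Vehicle animal 3 had the lowest input level of its group for all 10 markers. Its mean deviation from the marker's own average over 12 animals was -0.23 on the log2 scale, while the other 3 vehicle animals were at 0.35, 0.68 and 0.57 and the wild-type animals between -0.68 and -0.60. Without this animal, 7 markers were called higher, beside 229 of 18208 genes, against 187 of 17693 genes with it. Csf1r (log2 0.98, edgeR adjusted p = 0.00938), Gpr34 (log2 1.04, adjusted p = 0.000715) and Siglech (log2 0.90, adjusted p = 0.00311) joined the 4 above. P2ry12 then stood at log2 0.35 (edgeR adjusted p = 0.191), P2ry13 at 0.51 (adjusted p = 0.316) and Sall1 at 0.74 (adjusted p = 0.0823). The same animal held 23418 CPM in 10 choroid plexus markers, where the median of the 4 vehicle animals was 1011, and their part in its marker levels was not tested.

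**Figure D2:**
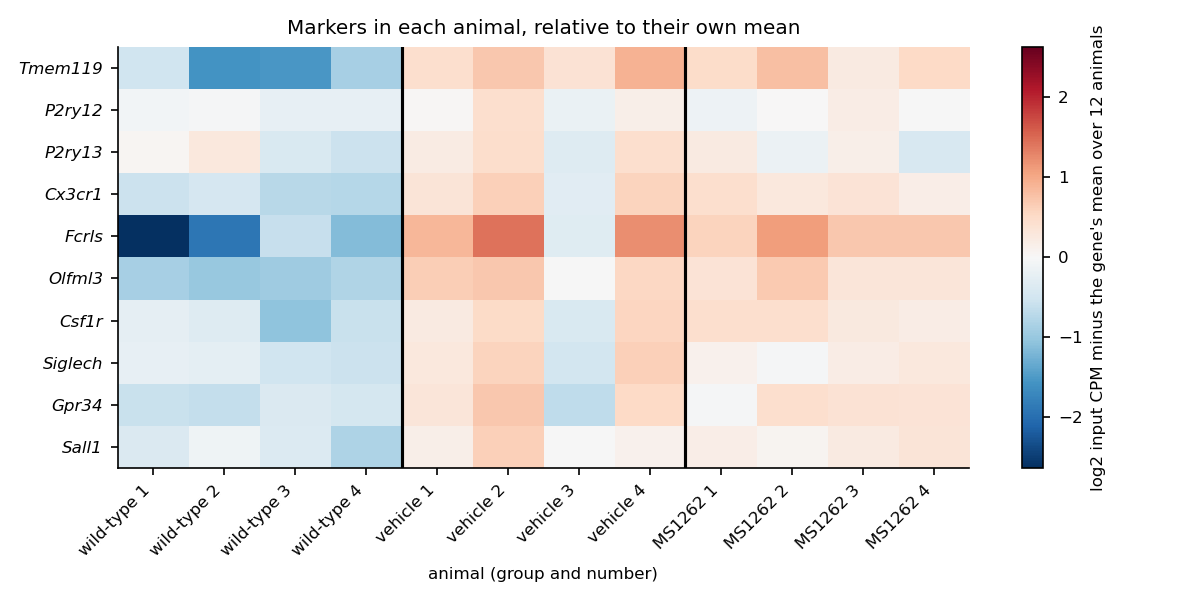
Each cell is a marker's log2 input CPM in 1 animal minus its mean over the 12 animals, with vertical lines between the groups. Wild-type animals are mostly below the mean, vehicle animal 3 lies between the groups with a mean of -0.23, and in the rows of P2ry12 and P2ry13 the groups overlap.

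Comparing MS1262 with vehicle in 5xFAD mice asks whether the inhibitor moved these genes. No marker was called. Differences on the log2 scale ran from -0.27 for P2ry13 to 0.06 for Csf1r, with a median of -0.09 beside -0.01 over all genes, and edgeR adjusted p-values ran from 0.895 to 0.995. At this threshold 0% of the 17693 genes were called by edgeR and DESeq2 alike, while 1003 genes and 0 markers had an unadjusted edgeR p below 0.05.

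The intervals show how large a change could have been missed. For P2ry12 the ratio of MS1262 to vehicle was 0.928 with an interval of 0.776 to 1.11, and for Olfml3 it was 0.946 with an interval of 0.756 to 1.18. Fcrls had the widest interval, 0.511 to 1.57 around 0.897, and that of Tmem119 was 0.580 to 1.45 around 0.916. The MS1262 and vehicle animals overlapped for every marker.

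The MS1262 animals were more alike than the vehicle animals. The coefficient of variation of Cx3cr1 input CPM was 7.84% in the MS1262 group and 26.3% in the vehicle group, and that of Csf1r was 8.98% and 27.9%. The coefficients were close for Tmem119, at 18.1% and 19.7%, and for P2ry13, at 20.4% and 23.7%. These spreads were not compared with a test, and vehicle animal 3 set the lower end of the vehicle values.

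Against the same wild-type mice, the MS1262 group showed the same 4 markers as higher, and 4 of 10 were called where 0.91% of all genes were called higher. Fcrls was 4.66-fold higher (log2 2.22, SE 0.40, edgeR adjusted p = 0.0131) at 55.4, 79.7, 60.4 and 60.4 CPM. Tmem119 was 3.89-fold higher (log2 1.96, SE 0.33, adjusted p = 0.00813) at 4.03, 5.13, 3.30 and 4.14 CPM. Every MS1262 animal exceeded every wild-type animal for both genes, but without wild-type animal 2 Fcrls missed the threshold (adjusted p = 0.0517).

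Olfml3 was 2.57-fold higher in the MS1262 group (log2 1.36, SE 0.16, edgeR adjusted p = 0.000512) at 30.2, 38.4, 29.4 and 29.3 CPM. Cx3cr1 was 1.94-fold higher (log2 0.96, SE 0.17, adjusted p = 0.0112) at 36.1, 32.2, 34.1 and 30.1 CPM, and was not called with limma on log2(TPM + 1) (adjusted p = 0.0601). Csf1r lay just outside the threshold (log2 0.88, adjusted p = 0.0550), followed by Gpr34 (log2 0.82, adjusted p = 0.0855), Sall1 (log2 0.65, adjusted p = 0.108) and Siglech (log2 0.55, adjusted p = 0.213). P2ry12 was at log2 0.17 (interval -0.09 to 0.42) and P2ry13 at log2 0.10 (interval -0.36 to 0.57). For 8 of 10 markers, all but P2ry12 and P2ry13, every MS1262 animal lay above every wild-type animal, as did 5.06% of all genes.

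**Figure D3:**
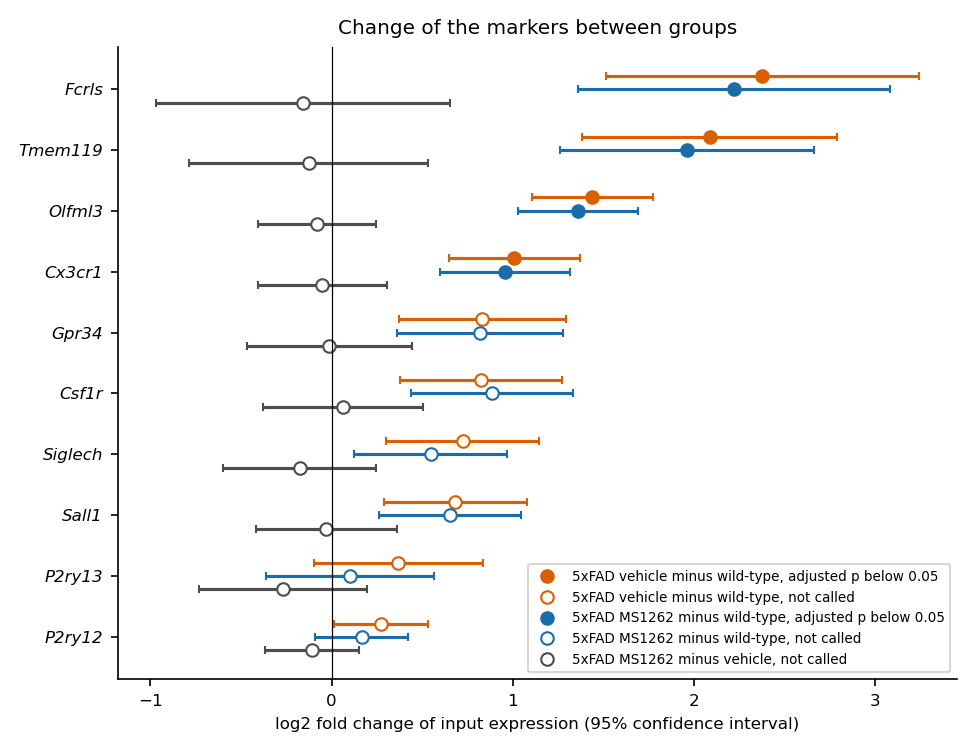
Log2 fold change of input expression for each marker in the 3 comparisons, with 95% confidence intervals from edgeR; filled points passed an adjusted p below 0.05. The 2 comparisons with wild-type share the same 4 wild-type animals, and Fcrls is highest in both, at 2.38 and 2.22. The lowest is P2ry12 at 0.27 for vehicle and P2ry13 at 0.10 for MS1262 minus wild-type. All MS1262 minus vehicle intervals include 0.

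Of 16 pan-microglia and myeloid genes, 8 were higher in the vehicle group and none lower (median log2 1.30), among them the leukocyte phosphatase gene Ptprc at 3.57-fold (edgeR adjusted p = 0.0094), the complement gene C1qc at 2.86-fold (adjusted p = 0.0124) and the protease gene Ctss at 2.76-fold (adjusted p = 0.00627). The count depended on single animals: it was 13 without vehicle animal 3, 5 without wild-type animal 2, 4 without wild-type animal 1 or vehicle animal 2, 3 without wild-type animal 3 and 2 without wild-type animal 4. Set against the summed input CPM of these 16 genes, P2ry12 was at 596 ± 27.3 CPM per 1000 CPM in wild-type animals, 303 ± 110 in the vehicle group and 248 ± 40.3 in the MS1262 group. The lowest wild-type animal, at 562, lay above the highest 5xFAD animal, at 467. Siglech was at 47.7 ± 2.01, 31.2 ± 5.31 and 26.1 ± 5.37 on this scale, also without overlap, whereas Olfml3 was at 38.5 ± 5.17, 42.5 ± 11.1 and 36.1 ± 5.22 and overlapped throughout. Fcrls went the other way, at 44.7 ± 30.0, 82.0 ± 10.0 and 72.1 ± 6.70, and so did Tmem119, at 3.2 ± 1.53, 5.94 ± 2.40 and 4.70 ± 0.833, both with overlap between wild-type and 5xFAD animals. P2ry13 was also lower without overlap, at 45.7 or more in wild-type and 40.8 or less in 5xFAD animals. So was Gpr34, at 159 or more and 137 or less. The means of Csf1r, Cx3cr1 and Sall1 were lower in both 5xFAD groups than in wild-type mice, with overlap between wild-type and 5xFAD animals. These ratios are descriptions without a test, and their divisor itself rose. It separated wild-type from 5xFAD animals, at 291 to 360 CPM in wild-type, 402 to 1190 in vehicle and 697 to 1061 in MS1262 animals. A gene with unchanged input CPM therefore tends to separate on this scale, and no share of all genes is given for it.

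Of 16 disease-associated microglia genes, 10 were higher in the vehicle group and none lower (median log2 1.27), with 7 to 11 when any single wild-type or vehicle animal was left out. The lectin receptor gene Clec7a was 13.6-fold higher (edgeR adjusted p = 0.00259), the chemokine gene Ccl6 10.8-fold (adjusted p = 0.00182) and the lysosomal protease gene Ctsd 2.69-fold (adjusted p = 0.000794). Of 19 tested genes in a second list of homeostatic microglia genes, 2 were higher and none lower (median log2 0.43), among them the TGF-beta receptor gene Tgfbr1 at 1.72-fold (edgeR adjusted p = 0.0237). This count was 5 without vehicle animal 3, 1 without wild-type animal 3 or vehicle animal 1, and 0 without any other single animal of the 2 groups. Pros1, a ligand of receptors for dying cells, was at 1.54-fold (adjusted p = 0.0512).

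Ligands and regulators of the markers were tested as a list of 21, of which 19 passed the filter, and 4 were higher and none lower (median log2 0.20). The count was 1 without wild-type animal 1 or 2 or vehicle animal 2, 2 without wild-type animal 3 or 4 or vehicle animal 4, 3 without vehicle animal 1 and 6 without vehicle animal 3. The 4 were Tgfbr1, the second TGF-beta receptor gene Tgfbr2 at 2.04-fold (edgeR adjusted p = 0.0181), the myeloid transcription factor gene Irf8 at 2.50-fold (adjusted p = 0.0483) and the signalling adaptor gene Tyrobp at 4.65-fold (adjusted p = 0.00482). The ligand genes are named for their receptors, outside the naming rule. The Csf1r ligand gene Csf1 was at 5.07 ± 0.949 CPM in wild-type and 8.77 ± 1.94 CPM in vehicle animals (adjusted p = 0.0541), and its other ligand gene Il34 was at 14.4 ± 1.70 and 14.6 ± 2.76 CPM (adjusted p = 0.957). Cx3cl1, the ligand gene of Cx3cr1, was at 34.7 ± 3.68 and 29.4 ± 2.85 CPM (adjusted p = 0.519).

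Other cells that could carry some of these transcripts were measured by their own markers. Of 10 border macrophage markers 1 was higher in the vehicle group, F13a1 at 2.50-fold (edgeR adjusted p = 0.0479), and their summed input CPM ranged from 12.3 to 24.6 in wild-type, 15.4 to 45.6 in vehicle and 17.3 to 21.8 in MS1262 animals. None of the 10 was called when any single wild-type or vehicle animal other than vehicle animal 2 was left out. Of 8 monocyte and neutrophil markers 2 passed the filter and none was called, and the list summed to between 0.522 and 3.26 CPM in the 12 animals, with 1 gene at 0 throughout the wild-type and 1 throughout the vehicle group. None of the 5 red blood cell, 5 neuron, 5 astrocyte, 5 oligodendrocyte, 5 endothelial, 8 meningeal and 10 choroid plexus markers was called. Median log2 changes in the vehicle group were nevertheless 2.08 for choroid plexus, 0.81 for border macrophage, 0.65 for red blood cell and 0.61 for meningeal markers. They were 0.26 for astrocyte, 0.12 for endothelial, -0.02 for oligodendrocyte and -0.10 for neuron markers, beside 0.83 for the homeostatic markers. The part of these cells in the marker levels was not tested.

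The genes most like the markers were sought among 11895 other protein-coding genes, by the root mean square difference between a gene's centred log2 input CPM and the mean centred profile of the 10 markers over the 12 animals. The nearest were Lair1 (0.130), an inhibitory collagen receptor of leukocytes, Xlr (0.147), Grn (0.155), which encodes the lysosomal protein progranulin, and Tgfbr1 (0.165). Tmem176a (0.171), Man2b1 (0.177), the MHC class I light chain gene B2m (0.179) and the tetraspanin gene Cd9 (0.185) followed. Among the markers themselves Cx3cr1 lay nearest to the mean profile at 0.0842 and Fcrls farthest at 0.832, with P2ry12 at 0.378, P2ry13 at 0.421 and Tmem119 at 0.461.

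Promoter sequences are shown for 3 markers that were higher together, Fcrls, Olfml3 and Cx3cr1, and for P2ry12, which was not. Each runs 5′ to 3′ from 250 bases before to 50 bases after the RefSeq gene start (GRCm38.p6, all on the minus strand), and capitals mark the PU.1-type core GAGGAA on either strand. The start used for Fcrls lies inside the annotated span of the gene, which ends at base 87263765, so that nearly all of its window is within the gene. PU.1 is the master transcription factor of the myeloid lineage.
Fcrls, chr3:87263475-87263774: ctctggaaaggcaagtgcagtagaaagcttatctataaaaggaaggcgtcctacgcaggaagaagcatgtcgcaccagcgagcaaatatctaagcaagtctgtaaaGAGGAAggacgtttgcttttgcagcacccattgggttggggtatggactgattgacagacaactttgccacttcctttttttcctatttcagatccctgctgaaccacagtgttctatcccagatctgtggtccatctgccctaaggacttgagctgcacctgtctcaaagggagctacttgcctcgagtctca
Olfml3, chr3:103737952-103738251: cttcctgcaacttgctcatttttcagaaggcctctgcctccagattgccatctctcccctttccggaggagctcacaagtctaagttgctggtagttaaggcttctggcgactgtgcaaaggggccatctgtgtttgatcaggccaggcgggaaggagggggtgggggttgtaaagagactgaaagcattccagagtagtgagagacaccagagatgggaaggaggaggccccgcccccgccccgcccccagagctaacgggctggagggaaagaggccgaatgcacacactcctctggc
Cx3cr1, chr9:120068247-120068546: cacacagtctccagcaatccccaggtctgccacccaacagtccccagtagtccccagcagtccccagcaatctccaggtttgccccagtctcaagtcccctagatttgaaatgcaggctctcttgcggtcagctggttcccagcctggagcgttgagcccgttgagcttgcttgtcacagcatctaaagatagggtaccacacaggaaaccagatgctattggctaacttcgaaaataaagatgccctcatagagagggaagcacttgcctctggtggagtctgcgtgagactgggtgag
P2ry12, chr3:59262936-59263235: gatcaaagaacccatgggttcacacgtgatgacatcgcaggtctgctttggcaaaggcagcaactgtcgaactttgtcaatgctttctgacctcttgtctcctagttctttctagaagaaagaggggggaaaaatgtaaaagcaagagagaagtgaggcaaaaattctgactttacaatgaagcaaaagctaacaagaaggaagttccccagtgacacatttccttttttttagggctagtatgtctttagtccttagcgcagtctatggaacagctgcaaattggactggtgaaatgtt
The letters GAGGAA or their reverse complement were found in 3 of the 7 markers with a promoter entry, Fcrls, P2ry13 and Siglech, and in 28.3% of all 32851 promoters of this length. The RUNX-type core TGTGGT, on either strand, was found in 4 of 7, in Cx3cr1 as well as those 3, and in 16.8% of all promoters. The SMAD-type core CAGACA was found in Fcrls and Siglech and in 21% of promoters, TATAAA in Fcrls and in 13.6%, and the AP-1 motif TGANTCA in none of the 7 and in 7.81%. No motif contains another, and a match is not a binding site.

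The IP libraries ask how strongly each marker's transcript was bound by the m6A antibody, as the ratio of IP to input in the same animal. RNA was not described as fragmented before the antibody step, so a ratio refers to whole transcripts. Csf1r, Cx3cr1 and P2ry13 had the highest ratios in all 3 groups, Fcrls, Olfml3 and Sall1 were also above input, and P2ry12 and Gpr34 were at or below it. In wild-type mice 7 of 10 markers were called higher in IP and none lower, beside 16.8% and 16.2% of 18300 genes. In the vehicle group 6 were higher and 1 lower, beside 19.1% and 20.6%. In the MS1262 group 8 were higher and none lower, beside 20.5% and 17.6%.

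Csf1r led in every group. In wild-type animals 1 to 4 its IP CPM was 49.5, 34.6, 36.2 and 39.7, against 16.4, 15.4, 9.14 and 12.9 in the same animals' input. In the vehicle animals the IP CPM was 74.3, 89.9, 43.9 and 91.9, against 23.0, 27.7, 14.6 and 29.3 in input. All 12 animals had more Csf1r in IP than in input, and the fitted ratio was 2.98 in wild-type (edgeR adjusted p = 1.2e-07), 3.16 in vehicle (adjusted p = 5.68e-08) and 3.32 in MS1262 mice (adjusted p = 4.84e-08).

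Cx3cr1 was also above input in every animal. Its log2 difference of IP and input CPM was 1.46, 0.965, 1.25 and 1.35 in the wild-type animals, 1.05, 1.18, 0.921 and 0.423 in the vehicle animals and 0.471, 1.08, 0.986 and 1.03 in the MS1262 animals. The fitted ratios were 2.40 (edgeR adjusted p = 2.01e-06), 1.87 (adjusted p = 3.89e-05) and 1.86 (adjusted p = 3.7e-05). P2ry13 followed at 2.07 (adjusted p = 0.000145), 1.55 (adjusted p = 0.00759) and 1.76 (adjusted p = 0.001), and 11 of 12 animals were above input. The exception was vehicle animal 4, whose IP library was the shallowest, at -0.13 on the log2 scale, and without vehicle animal 2 the P2ry13 call in that group was lost (adjusted p = 0.0563).

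Fcrls was bound 1.77-fold over input in wild-type (edgeR adjusted p = 4.84e-05), 1.37-fold in vehicle (adjusted p = 0.00384) and 1.53-fold in MS1262 mice (adjusted p = 0.000321), and all 12 animals were above input. Olfml3 had fitted log2 ratios of 0.52, 0.50 and 0.48 in the 3 groups, also above input in all 12 animals, but the wild-type animals split: animals 3 and 4 had log2 differences of 1.08 and 0.711, and animals 1 and 2 had 0.195 and 0.0978. Without wild-type animal 3 or 4 the Olfml3 call in wild-type was lost. Sall1 was called in all 3 groups at ratios of 1.38, 1.38 and 1.38, and each of these calls was lost when any of 2 or 3 single animals was left out (omissions in wild-type animals 1, 3 and 4, vehicle animals 1 and 3, and MS1262 animals 2, 3 and 4).

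Siglech was called in wild-type (ratio 1.33, edgeR adjusted p = 0.0116) and MS1262 mice (1.31, adjusted p = 0.0125) and not in vehicle mice (1.21, adjusted p = 0.0749). The wild-type call was lost without animal 3 or 4 and the MS1262 call without animal 2 or 3, and without vehicle animal 4 Siglech was called in the vehicle group too. Tmem119 was called in the MS1262 group alone (ratio 1.65, adjusted p = 0.0359), and that call was lost without any one of the 4 animals. In wild-type IP libraries Tmem119 had 4 to 61 counts, and without wild-type animal 2 it was called lower in IP in that group (log2 -1.26, adjusted p = 0.00437).

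P2ry12, the most abundant marker, was not called in any group. Run without the low-count filter, edgeR called P2ry12 lower in IP in the vehicle group. Its IP CPM was 210, 183, 224 and 186 in wild-type, 216, 305, 181 and 82.7 in vehicle and 186, 201, 238 and 221 in MS1262 animals. Apart from vehicle animal 4, whose log2 difference was -1.51, all animals lay between -0.20 and 0.29. Gpr34 was below input in all 12 animals and called lower in the vehicle group (ratio 0.656, edgeR adjusted p = 0.0138), where vehicle animal 4 was at -1.80 and the other 3 between -0.43 and -0.19. Without vehicle animal 4 the log2 ratio of Gpr34 in that group was -0.27, against -0.61 with it, and still called (adjusted p = 0.00984).

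**Figure D4:**
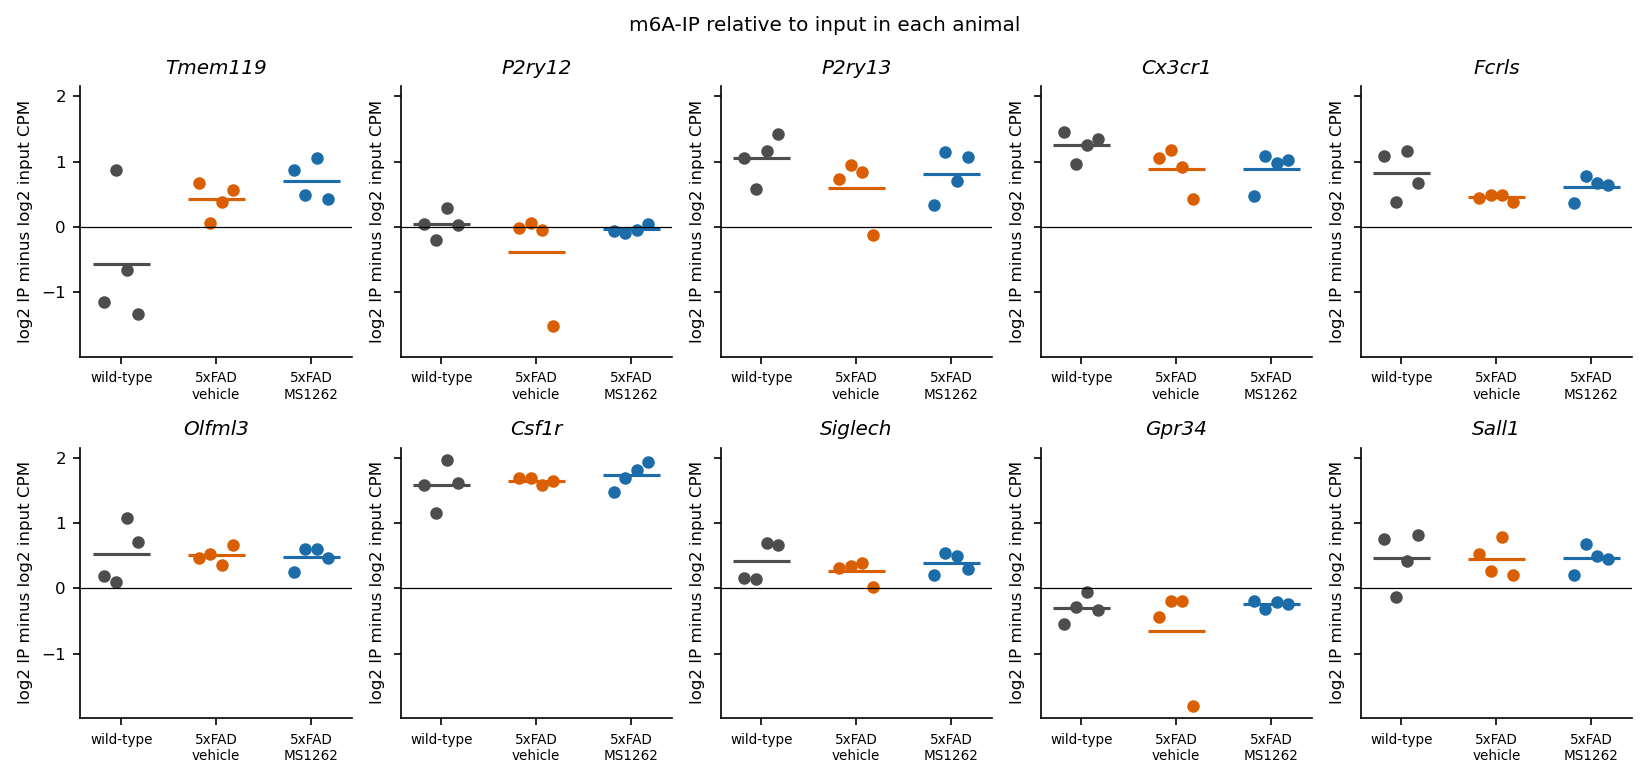
Log2 IP CPM minus log2 input CPM of each animal, by marker and group, with animals in number order and the group mean as a line; 0 means equal CPM in IP and input. Csf1r and Cx3cr1 lie above 0 in all 12 animals, Gpr34 lies below 0 in all 12, and vehicle animal 4 is low for P2ry12 and Gpr34.

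These ratios depend on the scaling. With TPM and limma on log2(TPM + 1), the median log2 ratio of all genes was 0.33 for wild-type, 0.41 for vehicle and 0.36 for MS1262 mice, and 8, 9 and 9 markers were called higher, beside 42.8%, 51.7% and 46.5% of all genes. P2ry12 was then at 0.59, 0.51 and 0.56, hence above that median, and was called in all 3 groups, and Gpr34 was at 0.26, 0.07 and 0.37 and was called in none. Without the animal as a block, the counts called fell to 3 for wild-type, 3 for vehicle and 4 for MS1262 mice. Genes called higher fell too, from 3076, 3501 and 3758 to 2229, 2711 and 2832 of 18300.

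No marker's ratio of IP to input was called different between groups. For vehicle minus wild-type, 0 of 10 markers were called beside 0.989% of all genes, and the log2 differences ran from -0.42 for P2ry13 to 0.96 for Tmem119. For MS1262 minus wild-type, 0 of 10 were called beside 1.24%, with a range from -0.37 for Cx3cr1 to 1.25 for Tmem119. For MS1262 minus vehicle, 0 of 10 were called beside 0%, with a range from -0.02 to 0.37. At an unadjusted edgeR p below 0.05 there were 2, 1 and 0 markers in these comparisons, beside 11.7%, 11.1% and 2.37% of all genes. DESeq2 called no marker. The 3 comparisons share animals pairwise.

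Tmem119 had the largest of these differences. Its log2 IP minus input was -1.15, 0.868, -0.658 and -1.33 in the wild-type animals, 0.680, 0.0595, 0.385 and 0.563 in the vehicle animals and 0.874, 0.486, 1.06 and 0.421 in the MS1262 animals. Wild-type animal 2 lay among the 5xFAD animals and the other 3 wild-type animals lay below all of them. The edgeR adjusted p was 0.403 for vehicle and 0.229 for MS1262 minus wild-type, and without wild-type animal 2 it was 0.0392 (log2 1.70) and 0.0139 (log2 1.99). For Csf1r the difference was narrow around 0: 0.08 for vehicle minus wild-type, with an interval of -0.26 to 0.42.

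Peaks of IP over input had been called by the authors in each animal separately, at a lenient q cutoff, and 8 of the 10 marker genes overlapped at least 1 peak in at least 1 animal, beside 34.7% of 16877 tested genes with a position. P2ry13 and Cx3cr1 carried a peak in all 12 animals, as did 4.01% of those genes. Csf1r carried one in 11, Olfml3 in 10, Fcrls in 8, Siglech in 7, P2ry12 in 3 and Gpr34 in 1 animal, and Tmem119 and Sall1 in none. Peak calling depends on depth, which ranged from 5477878 to 30113001 IP tags after duplicate limits, and on the level of the gene, so that a missing peak does not show missing m6A. The number of regions did not simply follow depth: the shallowest IP library, of vehicle animal 4, had 6591 and the deepest, of wild-type animal 2, had 5004. Since RNA was not described as fragmented before the antibody step, the position and number of peaks within a gene do not by themselves locate m6A.

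The peaks of Cx3cr1 merged into 1 region, chr9:120049412-120052321, which begins 729 bases inside the low-coordinate end of the gene (chr9:120048683-120068296). By its promoter entry the gene lies on the minus strand, so this is the 3′ end. The highest fold enrichment in each animal, as the authors' caller gave it, ran from 2.18 to 4.03 with a median of 3.31. P2ry13 had its region at chr3:59208024-59210291 in a gene of 2991 bases (chr3:59207892-59210882), with highest fold enrichments of 2.13 to 3.21. Its gene lies within the span of Med12l, as P2ry12 does, and Med12l itself was at 20.2 ± 2.97 CPM in wild-type and 19.5 ± 3.85 CPM in vehicle input.

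Csf1r had 1 peak region in each of wild-type animals 1 to 3, none in wild-type animal 4, and 1 to 8 in the 5xFAD animals. The region shared by 11 animals was chr18:61130107-61130926, which ends 213 bases before the high-coordinate end of the gene (chr18:61105572-61131139). The 8 other regions, spread from chr18:61109658-61109933 to chr18:61128894-61129478, were called in 3 to 6 of the 8 5xFAD animals and in no wild-type animal. Input expression of Csf1r was also higher in mean in those groups, which gives the caller more reads, and the part of this in the number of regions was not tested. Vehicle animal 3, with the lowest Csf1r input of its group, had 1 region, and the other vehicle animals had 8, 7 and 4. Wild-type animal 2 had 1 region at 1817 Csf1r counts in IP (34.6 CPM) and 572 in input. Vehicle animal 2 had 7 regions at 2037 (89.9 CPM) and 546 counts, and vehicle animal 4 had 4 at 440 IP counts (91.9 CPM). Their IP libraries differed in depth, so these animals are not matched.

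Olfml3 carried its peaks within chr3:103735510-103736614, the 3′ part of a gene of 2608 bases on the minus strand, in wild-type animals 3 and 4 and in all 8 5xFAD animals, at fold enrichments of 1.43 to 2.16. The 2 wild-type animals without a peak, 1 and 2, were those with the lowest ratio of IP to input for this gene. Fcrls had 4 regions between chr3:87251071-87251461 and chr3:87258762-87259734, the last of them called in 6 animals. P2ry12 peaks lay at chr3:59216532-59217052 and, in 1 animal, chr3:59217547-59217771, both near the low-coordinate end of a span of 46715 bases, and reached a fold enrichment of 1.39. At a −log10 q of at least 2, P2ry13 and Cx3cr1 kept their peaks in all 12 animals, Csf1r had one in 10, Olfml3 in 9, Fcrls in 6 and Siglech in 5.

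**Figure D5:**
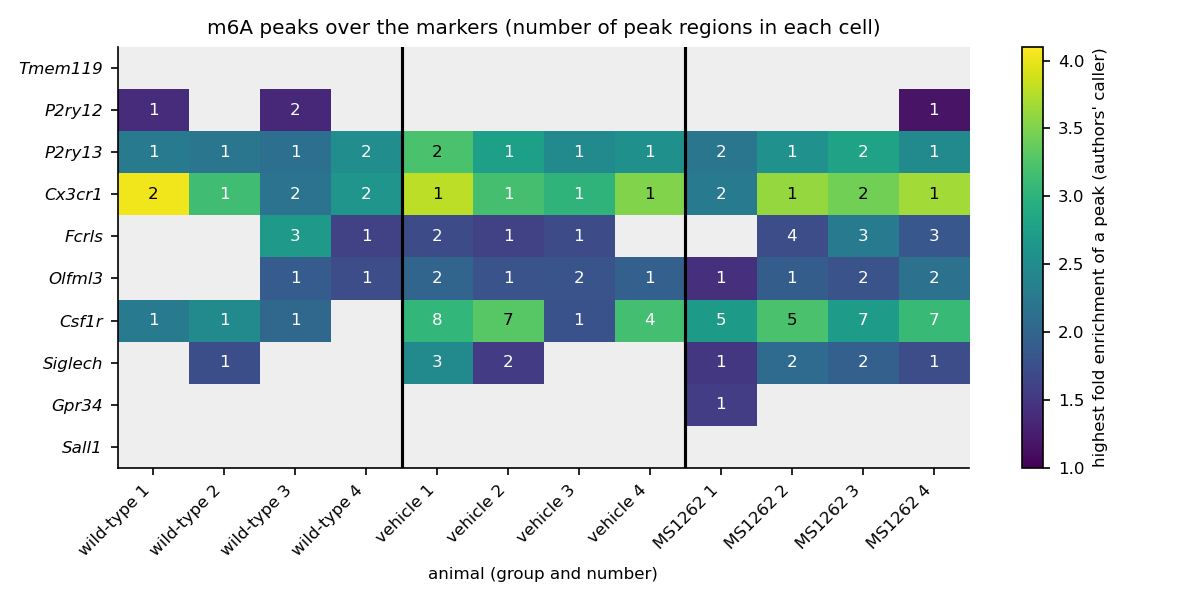
Highest fold enrichment, as given by the authors' peak caller, of the peaks over each marker gene in each animal, with the number of peak regions printed in the cell; grey means no peak. P2ry13 and Cx3cr1 have peaks in all 12 animals and Csf1r has up to 8 regions in 5xFAD animals against at most 1 in wild-type animals. The number of regions does not count m6A sites.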

How the data were processed

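Estimated counts per gene from all 24 libraries were deposited by the authors, along with TPM deposited by the authors. The submitters' processing notes name STAR 2.7.6a, Salmon 1.4.0, MACS2 2.1.2 and the builds GRCm38 and mm10. Of the non-zero estimated counts 22.1% were not whole, and all were rounded before testing. Per the file headers, MACS2 called peaks on the first read of each IP library against the input of the same animal, at a q cutoff of 0.5, with a limit on duplicates. The deposited peak lists give pileup signal, fold enrichment over local background, −log10 p and −log10 q per summit, as the authors' caller wrote them, and p-values and q-values were not recomputed. The SMART-seq libraries carry no molecular identifiers and PCR copies are therefore counted. Nothing states that counting used strand, so reads from sequence shared by transcripts of overlapping genes cannot be told apart. The spans of P2ry12 and P2ry13 overlap Med12l, and that of Gpr34 overlaps Cask. Whether their transcripts share sequence was not examined.

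Animals are the replicates. Expression was tested on the 12 inputs and IP over input on all 24 libraries with the animal as a block, both with edgeR 4.0.16 in R 4.3.3 (TMM scaling, quasi-likelihood test, low counts removed at a minimum of 10, 2-sided p adjusted over all genes by Benjamini-Hochberg, threshold 0.05). The steps were tested on simulated data. Printed CPM use TMM scaling over all 24 libraries, except those of Ttr, Xist and the Y-linked genes, which are scaled by library total alone. Per-animal log2 ratios add 0.1 CPM. Replicate numbers did not pair animals across groups (correlations of -0.093 to 0.054), whereas input and IP of 1 animal deviated together (0.19 to 0.43). Gene positions, promoters and their strands are from RefSeq (GRCm38.p6); 7 of 10 markers matched a promoter entry. A peak was assigned to a gene when it overlapped the span by at least 1 base.

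The named genes are the 10 markers, up to 3 members of every other list with the smallest p in vehicle against wild-type (and any further called, up to 6), and the 8 most like genes; a selection is printed, and 1 gene of the second homeostatic list is not reported here. Markers, lists and tests were chosen with earlier results of these data known. Alternatives were DESeq2 1.42.0, no low-count filter, limma 3.58.1 on TPM, a fit of only the 2 groups, a replicate block or none, each animal left out, and stricter peak rules. Low counts limit the precision for Tmem119.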

Additional observations from a re-analysis of the deposited data

Results flagged for a closer look

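In each group of 4 animals an animal was noted when its gap to the nearest other animal was a large enough share of the group's range; chance gives about 1 in 20 groups, and 90 groups were checked (10 markers, 3 groups and 3 quantities), of which 8 met it. In the vehicle group, animal 4 had a log2 IP minus input of -1.51 for P2ry12 and -1.80 for Gpr34, where the nearest animals were at -0.05 and -0.43. Its IP library held the fewest counts of all. In the same group animal 3 had the lowest Olfml3 level in IP, 4.93 on the log2 CPM scale against 5.71 in the nearest animal.

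In the MS1262 group, animal 1 was low for the Cx3cr1 ratio of IP to input (0.471 against 0.986), for Gpr34 in input (6.41 against 6.80) and in IP (6.22 against 6.56) and for Sall1 in IP (3.63 against 3.98), all on the log2 scale. Animal 2 of that group was high for Olfml3 in input, 5.28 against 4.94. Causes were not tested.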

How the results depend on the processing

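For expression in vehicle against wild-type, 4 markers were called. DESeq2 called 8, edgeR without the low-count filter 7 and limma on log2(TPM + 1) or log2(TPM + 0.1) 3 each. Leaving out 1 animal gave 4 to 7, the 7 without vehicle animal 3. All genes called higher numbered 187 of 17693 in the main fit, 405 of 17693 with DESeq2 and 242 of 29817 without the filter. They were 60 and 81 of 17693 with limma and 229 of 18208 without vehicle animal 3. For MS1262 against wild-type, DESeq2 called 7 in place of 4, no filter 6, a fit of only the 2 groups 6 and limma 3 and 4, and leaving out 1 animal gave 3 to 4. Here the genes called higher numbered 161 of 17693 in the main fit, 382 of 17693 with DESeq2 and 225 of 29817 without the filter. They were 223 of 16841 with only the 2 groups and 60 and 79 of 17693 with limma. The replicate block over numbers 1 to 4, which do not pair animals, called 4, 0 and 5 markers in the 3 expression comparisons. MS1262 against vehicle gave 0 markers under every alternative run. With log2(TPM + 0.1) the median of all genes moved to -0.14 for vehicle minus wild-type.

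For IP over input, the fit with no replicate block called 3 markers for wild-type, 3 for vehicle and 4 for MS1262 mice in place of 7, 7 and 8. In that fit 2229, 2711 and 2832 of 18300 genes were called higher. Leaving out 1 animal gave 4 to 8, 6 to 8 and 5 to 7. Leaving out vehicle animals 3 and 4 together, chosen after seeing the data, gave 6 in place of 7. Differences of the ratio between groups gave 0 markers, and 1, Tmem119, without wild-type replicate 2, in vehicle and in MS1262 against wild-type (0 to 1 over all omissions). With log2(TPM + 1), chosen after seeing the data, the log2 ratio changed sign for P2ry12 in the vehicle (0.505) and MS1262 (0.564) groups and for Gpr34 in the vehicle group (0.069) and, uncalled in both fits, for Gpr34 in the wild-type (0.262) and MS1262 (0.365) groups. Markers with peaks in all 12 animals numbered 2 under each peak rule. Of 1050 marker values under an alternative, 36 lost a call and 27 gained one with the sign kept. A further 3 changed sign and were called in only 1 of the 2 fits. Of 726 that were uncalled throughout, 82 changed sign, none beyond 0.365. The cause was not tested.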
